A study of Mus musculus with 24 samples.

Results

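Glucocorticoid-responsive genes and metallothioneins, 8 genes in all, are described here across the tissues of wild-type and Rap1 knock-in mice: Ddit4, the metallothioneins Mt1 and Mt2, and Fkbp5, Tsc22d3, Sgk1, Zbtb16 and Klf9. They are 8 of the 21368 genes named on the array and were read by 9 of its 55681 probes, because Mt1 has 2 probes. The set was chosen by measured values, because the signals of Ddit4 and Mt1 varied alike over these same arrays, so the levels across tissues and mice and the likeness between members are what chose them and are given as a description, with no test. The comparison of the genotypes was tested. The study asked what RAP1, a protein of the telomere-capping shelterin complex encoded by Terf2ip (Rap1), does away from telomeres, and used mice in which CRISPR/Cas9 had placed the I312R point mutation, at the residue needed for contact with TRF2, in both alleles. Liver, brain, heart and skeletal muscle were taken from 3 wild-type mice (WT1, WT2 and WT3, labelled RAP1 WT) and 3 homozygous mice (KI1, KI2 and KI3, Rap1 KI/KI, labelled RAP1 MUT), all male, which gave 24 arrays of total RNA with 1 array for each mouse and tissue. Age differed within each genotype, with WT1 and KI1 at 5 months and WT2, WT3, KI2 and KI3 at 2 months. The knock-in line had been crossed 4 times to C57BL/6N (C57BL6 in the labels), the mice carried the mutation in every cell, and the mutation leaves the transcript in place, so a transcript level does not check the genotype labels.

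Glucocorticoids, mainly corticosterone in mice, bind the glucocorticoid receptor NR3C1, which is held by HSP90 and the immunophilins FKBP4 and FKBP5 until the hormone arrives and then binds DNA at pairs of inverted AGAACA half-sites. Among its well-known targets, Ddit4 (REDD1) restrains the growth kinase complex mTORC1 and is also induced by hypoxia and energy stress, Fkbp5 lowers the receptor's affinity for the hormone, and Tsc22d3 (GILZ) carries anti-inflammatory effects. Sgk1 is a kinase that controls ion transport and survival, and Zbtb16 (PLZF) and Klf9 are transcription factors. Metallothioneins are small cysteine-rich proteins that bind zinc and copper. Their promoters hold metal response elements, whose core is read by the zinc sensor MTF1, and the genes also answer to glucocorticoids and to inflammation.

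Promoter sequence from RefSeq (GRCm38.p6) was matched to 7 of the 8 members, with 14 start sites among them. Zbtb16 had no entry. The sequences of Mt1, Mt2 and Ddit4 are shown because these genes carry the shared pattern described below, and one Sgk1 start is shown for its glucocorticoid response element. Each run is the 250 bases before the annotated start, read 5′ to 3′ on the gene's strand. Capitals mark metal response cores (TGCACNC or TGCGCNC, on either strand) in the Mt1, Mt2 and Ddit4 runs and the half-site AGAACA, on either strand, in the Sgk1 run. The short Mt1 run is the first 30 bases from the annotated start, with the cores in capitals.
Mt1, chr8:94178839-94179088, plus strand: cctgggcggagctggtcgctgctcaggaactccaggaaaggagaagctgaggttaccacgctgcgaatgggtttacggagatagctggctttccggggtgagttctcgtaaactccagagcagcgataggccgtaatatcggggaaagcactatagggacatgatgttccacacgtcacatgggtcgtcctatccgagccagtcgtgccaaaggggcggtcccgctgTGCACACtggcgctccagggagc
Mt1, chr8:94179089-94179118, plus strand: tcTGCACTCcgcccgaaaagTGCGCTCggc
Mt2, chr8:94172368-94172617, plus strand: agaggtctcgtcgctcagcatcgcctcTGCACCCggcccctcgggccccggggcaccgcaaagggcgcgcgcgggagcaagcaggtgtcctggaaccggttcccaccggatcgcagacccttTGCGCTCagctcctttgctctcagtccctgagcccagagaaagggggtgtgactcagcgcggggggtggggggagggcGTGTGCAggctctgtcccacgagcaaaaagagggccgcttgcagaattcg
Ddit4, chr10:59951771-59952020, minus strand: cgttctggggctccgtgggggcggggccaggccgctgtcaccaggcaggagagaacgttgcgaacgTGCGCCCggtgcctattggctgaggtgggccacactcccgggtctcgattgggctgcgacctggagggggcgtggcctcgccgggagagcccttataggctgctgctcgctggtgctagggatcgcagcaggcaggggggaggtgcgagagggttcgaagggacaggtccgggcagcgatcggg
Sgk1, chr10:21993640-21993889, plus strand: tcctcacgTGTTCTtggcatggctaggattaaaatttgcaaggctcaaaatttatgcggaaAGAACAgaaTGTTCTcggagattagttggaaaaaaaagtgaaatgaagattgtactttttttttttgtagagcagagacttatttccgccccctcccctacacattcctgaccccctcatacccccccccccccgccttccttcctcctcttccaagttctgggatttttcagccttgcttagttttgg

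The metallothioneins were the members richest in metal response cores. Over the 300 bases from 250 before to 50 after the start, Mt2 held 4 cores and Mt1 held 3, of which 2 lay just after the annotated start. A core was found in 25.7% of all 32851 windows and 2 or more were found in 7.11%. Ddit4 held 1 core, 184 bases before its start. The start of Mt1 lies 6471 bases downstream of the start of Mt2 on chromosome 8, so the metallothioneins are neighbours in the same orientation. RefSeq places the first base of Mt1 at position 94178883, which is 206 bases before the start used for the window. The complete element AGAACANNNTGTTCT, which reads the same on both strands, was found in 3 of the 32851 windows (0.00913%), and 1 of these is the Sgk1 start shown, from 189 to 175 bases before it. The half-site AGAACA was found in 19.0% of windows, and among the members it was found at 3 Sgk1 starts and 1 Tsc22d3 start. Of the 7 members with a sequence, Ddit4, Mt1, Mt2, Fkbp5 and Klf9 held no half-site in these windows. These matches describe letters and do not show that a protein binds there, and which start gave rise to the transcripts measured was not tested.

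All 9 probes were well above background and none was saturated on any of the 24 arrays, so every member has a measured level in every mouse and tissue. Levels are log2 intensities set against each array's 75th percentile, so a level of 0 lies at that percentile and a difference of 1 is a doubling. The intensity at that percentile ran from 470.7 to 1389, and 56.5% to 72.7% of probes were well above background. The labelled tissues carried their markers: the summed level was 10.58 to 11.51 for hepatocyte markers in liver, 8.14 to 8.81 for neuron markers in brain, 10.50 to 11.41 for heart muscle markers in heart and 11.59 to 11.96 for skeletal muscle fibre markers in muscle. Fat cell transcripts were uneven in the heart, where their summed level was 0.21 to 4.94 in WT and 5.17 to 8.58 in Rap1 KI/KI hearts. Their median deviation from the heart mean was 2.70 in KI1 and 3.87 in KI3. In KI2 it was −0.525, near WT2 (−0.352) and WT3 (−0.519), and in WT1 it was −4.99. The RNA of heart and muscle was prepared with another kit than that of liver and brain, and the arrays lay on 3 slides: slide 1 held the liver arrays and the brains of WT1 and KI1, slide 2 the other 4 brains and 4 hearts, and slide 3 the hearts of WT3 and KI3 and the muscles. The number of arrays limits the precision of every value.

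Ddit4 (NM_029083) was measured highest in heart and varied most between mice in skeletal muscle. In muscle its level was 2.84, 3.74 and 6.15 in WT1, WT2 and WT3 and 4.31, 6.20 and 4.35 in KI1, KI2 and KI3. WT3 and KI2, mice of different genotype, were nearly equal and far above the rest, and the range from WT1 to KI2 was 10.2-fold. The heart values were 4.04, 4.34 and 5.89 in the WT mice and 4.22, 5.99 and 4.90 in the Rap1 KI/KI mice. The liver values were 2.49, 2.14 and 3.67 in the WT mice and 2.38, 3.49 and 3.12 in the Rap1 KI/KI mice. Brain values were 3.06, 3.49 and 4.78 in the WT mice, WT3 again being the highest of them, and 3.33, 3.89 and 3.83 in the Rap1 KI/KI mice. WT3, KI2 and KI3 were thus the 3 highest mice for Ddit4 in each of the 4 tissues, and the genotypes overlapped in each. In muscle KI3, at 4.35, led KI1, at 4.31, by far less than WT3 and KI2 did. The range between mice was 2.88-fold in liver, 3.29-fold in brain and 3.89-fold in heart. The SD over the 6 muscle values, 1.34, lay at the 97.4th percentile of all probes tested in muscle, where the median SD was 0.32.

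Mt1 (NM_013602) was high and even in brain and uneven in liver. Its liver level was 4.26, 4.02 and 6.04 in WT1, WT2 and WT3 and 3.77, 5.34 and 8.27 in KI1, KI2 and KI3. The same mice that were high for Ddit4 in liver, WT3, KI2 and KI3, were high for Mt1, and KI3 was 22.6-fold above KI1. Brain values were 7.34, 7.28 and 7.06 in the WT mice and 7.40, 7.32 and 7.47 in the Rap1 KI/KI mice, a range of 1.33-fold in which WT3 was the lowest mouse. Heart values were 7.18, 7.06 and 8.07 in the WT mice and 7.08, 7.33 and 7.21 in the Rap1 KI/KI mice. In muscle the WT mice gave 4.68, 4.58 and 5.31 and the Rap1 KI/KI mice gave 4.90, 6.25 and 5.83. WT3, KI2 and KI3 were the 3 highest in liver, heart and muscle and not in brain. The SD over mice lay at the 99.4th percentile of tested probes in liver and at the 7.7th in brain.

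The other Mt1 probe is assigned to the predicted transcript XM_006530752 and, unlike the first, separated the same mice in all 4 tissues. Its liver level was −3.32, −2.64 and 1.46 in the WT mice and −3.44, 0.51 and 2.64 in the Rap1 KI/KI mice, a range of 67.7-fold. In brain it was −2.57, −1.33 and −0.57 in the WT mice and −2.25, −1.31 and 1.06 in the Rap1 KI/KI mice. Here the brain range was 12.3-fold, against 1.33-fold for the first probe. Heart gave −1.90, −0.42 and 0.21 in the WT mice and −0.21, 0.88 and 0.69 in the Rap1 KI/KI mice. Muscle gave −3.19, −2.88 and −0.17 in the WT mice and −2.44, 0.51 and −1.19 in the Rap1 KI/KI mice. WT3, KI2 and KI3 were again the 3 highest in each of the 4 tissues, although in brain KI2, at −1.31, and WT2, at −1.33, were nearly equal. After the mean of each tissue was subtracted, the Mt1 probes correlated with r = 0.801 over 24 arrays, and the second probe correlated with Ddit4 with r = 0.703, against 0.447 for the first.

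Mt2 (NM_008630) followed Mt1 closely. Its liver level was 2.87, 2.43 and 5.10 in the WT mice and 2.41, 4.25 and 8.21 in the Rap1 KI/KI mice, so KI3 was 55.6-fold above KI1. The SD of the liver values, 2.24, lay at the 99.9th percentile of probes tested in liver. In brain Mt2 was 6.72, 6.64 and 6.64 in the WT mice and 6.92, 6.99 and 7.42 in the Rap1 KI/KI mice. Heart values were 5.03, 5.11 and 6.12 in the WT mice and 5.36, 5.19 and 5.35 in the Rap1 KI/KI mice. Muscle values were 3.74, 3.91 and 4.38 in the WT mice and 3.43, 5.72 and 5.03 in the Rap1 KI/KI mice. WT3 alone was raised in heart, WT3, KI2 and KI3 led in liver and muscle, and in brain the 3 Rap1 KI/KI values lay above the 3 WT values. Mt1 and Mt2 correlated within tissues with r = 0.984 over 24 arrays, the closest pair among the members, and their probes may share signal because the sequences are alike, which was not tested. Of 8 acute phase genes in liver, KI3 was the highest mouse for 4, among them Saa1, at 8.34, and Lcn2, at 6.35, and the lowest for 3, among them Fgb, at 8.41, and Hp, at 8.13.

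**Figure D1:**
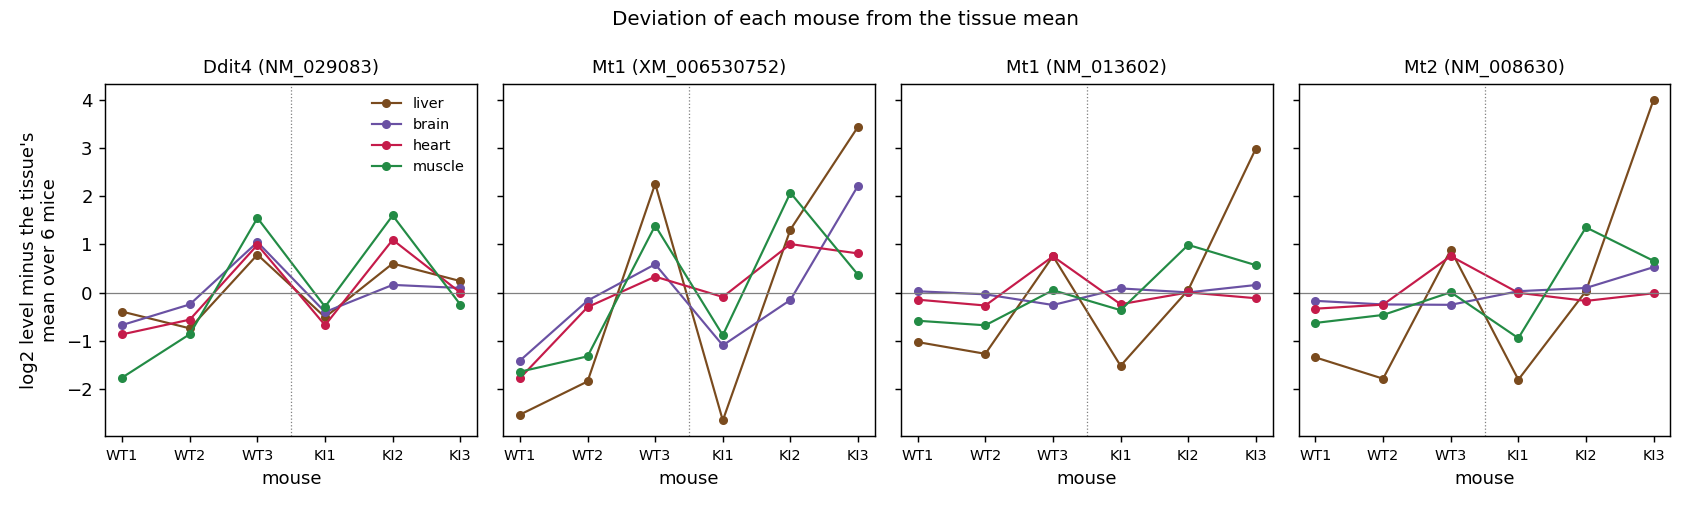
Deviation of each mouse from its tissue mean (vertical axis, log2), with the 6 mice on the horizontal axis, 1 line per tissue and 1 panel each for Ddit4, the 2 Mt1 probes and Mt2. WT3, KI2 and KI3 lie above the other mice for Ddit4 and for the second Mt1 probe in all 4 tissues, in places narrowly, while the first Mt1 probe and Mt2 spread widely in liver and little in brain.

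How often the same mice led in every tissue was counted over the array, with the measure chosen after the values had been seen. Among the 28626 probes tested in all 4 tissues, 9 (0.0314%) had the same 3 of 6 mice highest in all 4 tissues, whichever mice these were. For 2 of the 9 the mice were WT3, KI2 and KI3, and these were Ddit4 and the second Mt1 probe. WT3, KI2 and KI3 led in 3 or 4 tissues for 16 probes (0.0559%), which include both Mt1 probes, Ddit4, a Cebpd probe and 2 Arrdc2 probes. The others were probes of Col3a1, F7, Gng10, H19, Kap, Racgap1 and Vsig2 and probes without a gene name. The share that chance alone would give was not computed. Cebpd, a transcription factor gene, and Arrdc2, an arrestin-domain gene, stand on the list of further glucocorticoid targets. Since Ddit4 and Mt1 were chosen for varying alike, these counts describe the pattern and do not test it. With other processing Ddit4 kept the pattern in all 4 tissues under quantile normalization, normexp background correction and the authors' table, alternatives added after seeing the data. The second Mt1 probe had it in 4, 3 and 4 tissues under these settings, and the first Mt1 probe in 2, 3 and 3.

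The remaining members carried the pattern less often, and the difference between members was not tested. WT3, KI2 and KI3 were the 3 highest mice in 2 tissues for Mt2 (liver and muscle), in 2 for Tsc22d3 (liver and heart), in 1 each for Sgk1 and Klf9, and in none for Fkbp5 and Zbtb16. Over the 32 pairs of a member and a tissue, with the first Mt1 probe standing for Mt1, KI3 was among the highest 3 mice in 24, WT3 in 23, KI2 in 22, KI1 in 13, WT1 in 8 and WT2 in 6. The highest mouse was WT3 in 11 pairs, KI3 in 9, KI2 in 8, KI1 in 3 and WT1 in 1. These counts include Ddit4 and Mt1, whose likeness chose the set, and Mt2, which followed Mt1. Ddit4 alone put WT3, KI2 and KI3 among the highest 3 in 4 tissues each and KI1 in 0. The counts therefore describe the pattern and do not test it. The high mice thus came from both genotypes. They were all 2 months old, as was WT2, which was low, and both mice aged 5 months were low for Ddit4 in all tissues. Time of day, handling and the order of tissue collection are not given in the sources used here, and their part in the pattern was not tested.

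**Figure D2:**
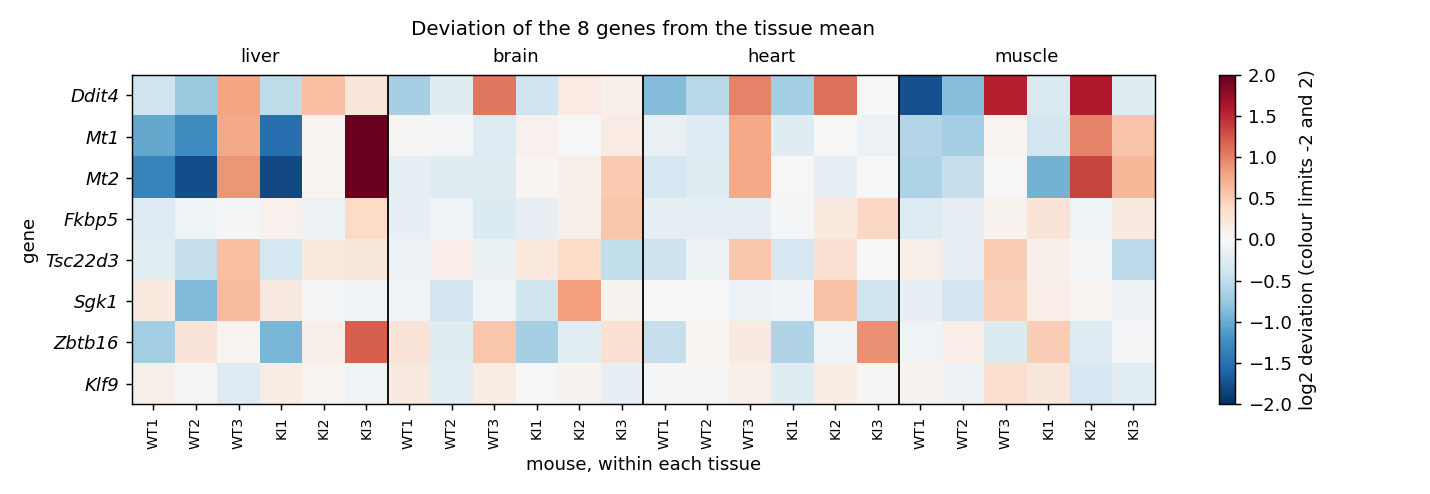
Deviation from the tissue mean (colour, log2) of the 8 members (lines, Mt1 by its first probe) in the 24 arrays (columns, by tissue and mouse), with colours held at −2 and 2. The columns of WT3, KI2 and KI3 carry most of the strong positive values, above all for Mt1 and Mt2 in liver and for Ddit4 in muscle, while the Klf9 line is nearly flat.

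Among the glucocorticoid-responsive members, Tsc22d3 came nearest to the Ddit4 pattern. In liver it was 4.89, 4.64 and 5.71 in the WT mice and 4.75, 5.31 and 5.33 in the Rap1 KI/KI mice, and in heart 5.02, 5.33 and 5.99 against 5.10, 5.74 and 5.42. Its correlation with Ddit4 over the 6 mice was 0.969 in liver and 0.951 in heart but −0.192 in brain and 0.333 in muscle, where KI3 was the lowest mouse at 6.10 and WT3 the highest at 7.12. Sgk1 was highest in WT3 in liver, at 3.08, and in muscle, at 6.0, and highest in KI2 in brain, at 3.99, and in heart, at 4.11. Its range between mice was 1.79-fold in muscle to 2.81-fold in liver.

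Fkbp5, Zbtb16 and Klf9 varied with little likeness to Ddit4 within tissues, with r of 0.192, 0.162 and 0.041. Fkbp5 was highest in KI3 in liver, brain and heart, at 3.67, 2.05 and 1.96, and its range between mice was at most 1.78-fold. In WT3, the mouse with the highest Ddit4 in liver and brain, Fkbp5 was the lowest of all 6 mice in brain, at 1.22, and in heart, at 1.34. Zbtb16 ranged 4.3-fold in liver, from −0.78 in KI1 to 1.33 in KI3, and 1.7-fold in muscle, where WT3 was the lowest mouse at 3.58. Klf9 ranged little between mice, from 1.31-fold in heart to 1.6-fold in muscle, where the range of Fkbp5 was smaller, at 1.43-fold. The SD of Klf9 lay at percentile 3.6 of the probes tested in heart and at percentile 35.1 in muscle.

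Likeness was measured as Pearson's r over the 24 arrays after the mean of each tissue was subtracted, and it is a description because the arrays come from 6 mice and the tissues of a mouse share that mouse. Over the 28 pairs of members, r had a median of 0.218 and ran from −0.413 (Mt2 and Klf9) to 0.984 (Mt1 and Mt2). It was over 0.5 for 2 pairs, Mt1 with Mt2 and Ddit4 with Tsc22d3 (0.515), and under 0 for 5. For Ddit4 and Mt1, the pair from which the set was built, r was 0.447 within tissues and 0.398 over the raw levels, with 0.643 in liver, 0.723 in heart, 0.723 in muscle and −0.70 in brain. The likeness of Ddit4 to the first Mt1 probe therefore did not extend to brain.

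Among 12701 named genes well above background on all 24 arrays, those most like Ddit4 were Ptprs (r = 0.802), Sphk1 (0.765), Depp1 (0.755), Vsig2 (0.75) and Tcim (0.749). Ptprs encodes a receptor tyrosine phosphatase, Sphk1 a sphingosine kinase, and Depp1 a FOXO-responsive regulator of autophagy. Tsc22d3 ranked 97th for likeness to Ddit4, Sgk1 195th, Mt1 221st, Mt2 327th, Fkbp5 2219th, Zbtb16 2671st and Klf9 4771st. The genes most like Mt1 were Mt2 (0.984), AI413582 (0.795), Trpm4 (0.767), Zfp13 (0.766) and Zbtb48 (0.742), and Ddit4 ranked 310th. In liver AI413582, Trpm4, Zfp13 and Zbtb48 were highest in KI3, as Mt1 was, at 2.37, −2.01, −1.85 and 1.92. Their next highest liver values were 1.68, −4.02, −3.56 and 1.14. How far these likenesses rest on the liver array of KI3 was not tested. Vsig2, a membrane protein gene, had WT3, KI2 and KI3 highest in 3 of 4 tissues. Its muscle level was 0.60, 0.35 and 1.44 in the WT mice and 0.59, 1.96 and 1.56 in the Rap1 KI/KI mice, but in brain KI2, at −0.72, lay below WT1, at −0.45, and WT2, at −0.13.

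Across tissues the members fell into several orders rather than a common one. Ddit4 averaged 4.90 ± 0.86 in heart, 4.60 ± 1.34 in muscle, 3.73 ± 0.60 in brain and 2.88 ± 0.63 in liver (SD, n = 6 mice), a 4.04-fold span, and each neighbour in this order overlapped the next. Mt1 averaged 7.32 ± 0.38 in heart, 7.31 ± 0.14 in brain, 5.28 ± 1.70 in liver and 5.26 ± 0.67 in muscle. Heart and brain could not be put in order, and brain was the higher under quantile normalization, normexp correction and in the authors' table. Mt2 was highest in brain at 6.89 ± 0.30, 6.38-fold above liver, and brain did not overlap heart at 5.36 ± 0.39. Muscle, at 4.37 ± 0.87, and liver, at 4.21 ± 2.24, overlapped each other and heart. Liver also overlapped brain through KI3, whose liver values of Mt1 and Mt2 lay above every brain value. Without KI3, an alternative added after seeing the data, Mt2 averaged 6.78 in brain and 3.41 in liver, a 10.3-fold span, and the span of Mt1 between heart and its lowest tissue rose from 4.17-fold, with muscle lowest, to 6.31-fold, with liver lowest. In these pieces of whole tissue, fewer cells of a type and less RNA per cell cannot be told apart, and the tissue is partly tied to the slide and the extraction kit.

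Of the glucocorticoid-responsive members, 4 were highest in skeletal muscle. Zbtb16 averaged 3.86 ± 0.28 in muscle and 0.14 ± 0.75 in liver, a 13.2-fold span with heart at 2.84 ± 0.54 and brain at 1.78 ± 0.45 between them and every neighbour overlapping. Sgk1 averaged 5.54 ± 0.29 in muscle, which did not overlap heart at 3.53 ± 0.32, and fell through brain, at 3.18 ± 0.44, to liver, at 2.47 ± 0.50, an 8.4-fold span. Tsc22d3 averaged 6.62 ± 0.34 in muscle, clear of heart at 5.43 ± 0.37, and its lowest tissue was brain at 4.07 ± 0.31, 5.83-fold below muscle and clear of liver at 5.11 ± 0.41. Klf9 had the narrowest span, 2.33-fold, from 4.93 ± 0.26 in muscle through liver (4.53 ± 0.15) and heart (4.48 ± 0.14), which overlapped, to brain at 3.71 ± 0.17. Fkbp5 differed from these in being highest in liver, at 3.27 ± 0.22, with muscle at 2.85 ± 0.20 overlapping it and heart and brain lower, at 1.54 ± 0.26 and 1.50 ± 0.30. Compared within a slide, where 2 tissues shared it, the sign of the difference was that over all arrays for every member except Mt1 and Fkbp5 in heart against brain, which were −0.12 and −0.09 within the slide and 0.01 and 0.04 over all arrays.

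**Figure D3:**
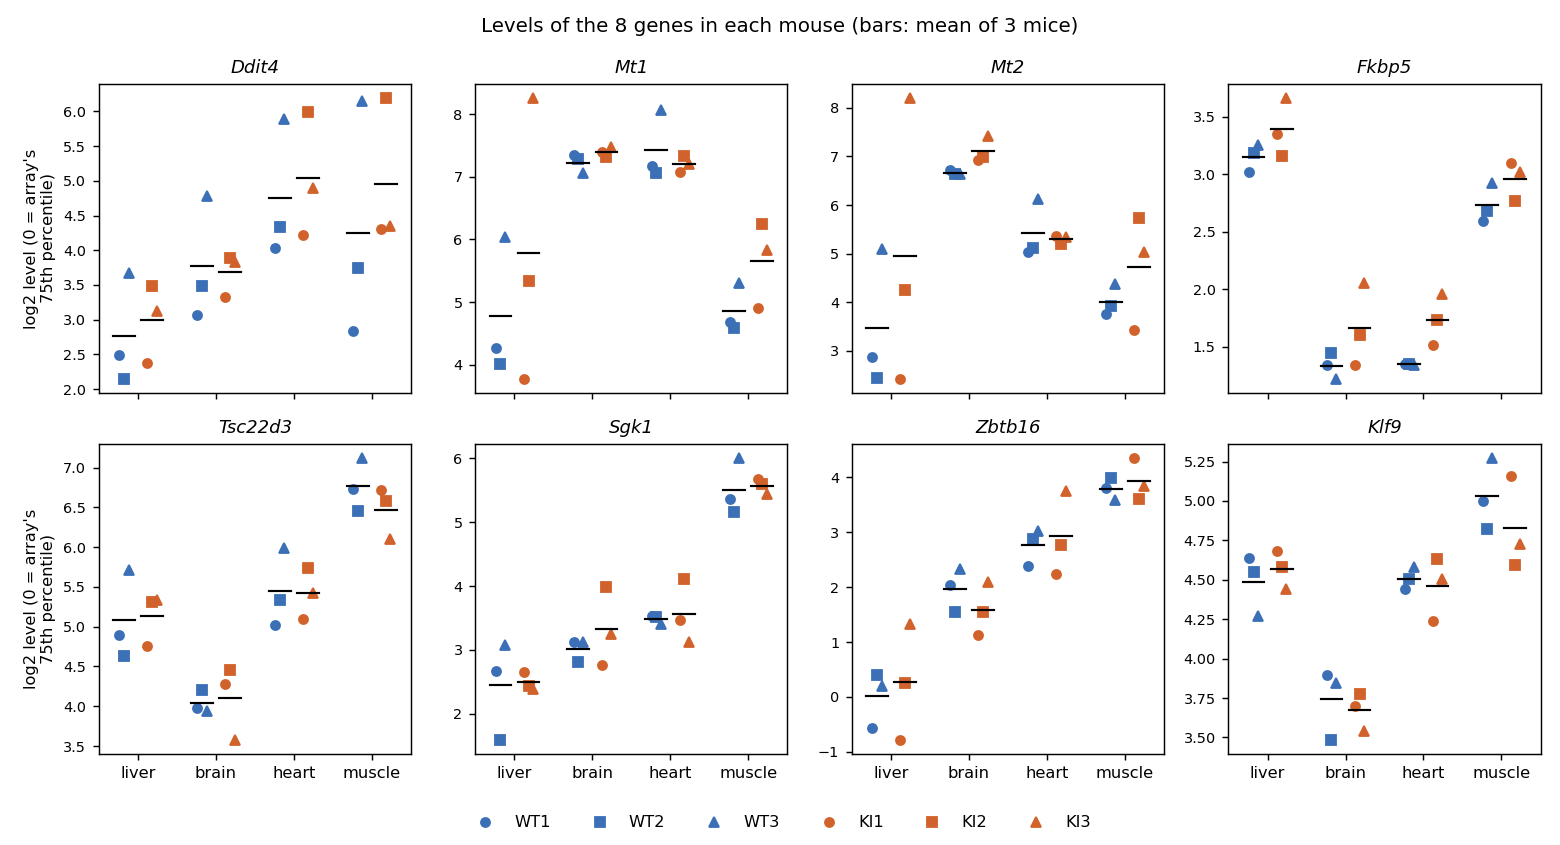
Level of each member (vertical axis, log2 intensity with the array's 75th percentile at 0) in each mouse by tissue (horizontal axis), 1 panel per gene with Mt1 by its first probe, bars at the mean of the 3 mice of a genotype. Levels of different genes are not comparable, since each comes from its own probe. The WT and Rap1 KI/KI points overlap in every panel except Mt2 in brain and Fkbp5 in heart.

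Between the genotypes no member was called in any tissue. limma, with Benjamini-Hochberg adjustment over all probes tested, called 0 of 8 members in liver (background 0% of 35213 probes), 0 of 8 in brain (0% of 37800), 0 of 8 in heart (0% of 34823) and 0 of 8 in muscle (0% of 32345). At an unadjusted p under 0.05 the count was also 0 of 8 in each tissue, where 2.13% of all probes passed in liver, 2.62% in brain, 7.51% in heart and 2.47% in muscle. All 8 members averaged higher in the Rap1 KI/KI mice in liver, with a median difference of 0.23, against a median of −0.01 over all tested probes. The liver count fell from 8 to 4 when KI3 was left out. In brain 5 members were higher and 3 lower, in heart 4 and 4, and in muscle 6 and 2. The median differences were 0.12, 0.03 and 0.19, against −0.05, −0.02 and −0.07 over all probes.

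The largest genotype differences among the members were those of the metallothioneins in liver, and both changed sign without KI3. Mt2 in liver averaged 4.96 ± 2.96 in Rap1 KI/KI mice and 3.47 ± 1.43 in WT mice (SD, n = 3 each), a difference of 1.49 on the log2 scale (SE 1.43, 95% interval −1.88 to 4.86, limma adjusted p = 1). Mt1 in liver differed by 1.02 (SE 1.11, 95% interval −1.59 to 3.63). Without KI3 these differences were −0.14 and −0.22. In muscle Mt1 was 1.74-fold higher in Rap1 KI/KI mice, a log2 difference of 0.80 (SE 0.39, 95% interval −0.11 to 1.71, limma unadjusted p = 0.076 and adjusted p = 0.94), and leaving out a mouse moved it between 0.51, without KI2, and 1.18, without KI1. Markers of blood cells also measured higher in Rap1 KI/KI muscle. Red cell markers had a summed level of 7.04 to 7.83 in WT and 8.06 to 8.65 in Rap1 KI/KI muscle, with 3 of 3 tested genes higher, and neutrophil markers 0.61 to 1.92 and 1.78 to 6.54, with 6 of 6 higher. Fat cell markers were higher for 6 of 6 tested genes, with a median difference of 1.03, and neuron markers for 3 of 3, with 1.55. Medians of other lists in muscle were −0.906 (hepatocyte), −0.118 (skeletal muscle fibre), −0.081 (choroid plexus) and 0.022 (heart muscle). They were 0.123 for endothelium, 0.447 for oligodendrocyte and 0.951 for astrocyte markers. KI2, the highest mouse for Mt1 in muscle, had median deviations of 2.17 for fat cell and 0.37 for red cell markers. Its medians were −1.09 for neutrophil and −1.02 for neuron markers. The part of all these markers in the muscle values was not tested. In heart the Mt1 probes disagreed in sign, with −0.23 (SE 0.31) for the first and 1.16 (SE 0.57, limma adjusted p = 0.65) for the second. Ddit4 differed by 0.23 (SE 0.46) in liver, −0.09 (SE 0.46) in brain, 0.28 (SE 0.62) in heart and 0.71 (SE 0.89) in muscle. The Ddit4 interval in muscle, −1.40 to 2.82, spans changes of several fold in either direction, and the difference was 0.01 without WT1, 0.09 without KI2 and 1.66 without WT3.

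The genotypes did not overlap for 1 of 8 members in brain (7.74% of all probes there), 1 of 8 in heart (14.7%), and 0 of 8 in liver (5.85%) and muscle (6.45%). The brain member was Mt2, with a mean of 7.11 ± 0.27 in Rap1 KI/KI and 6.67 ± 0.05 in WT mice, a difference of 0.44 (SE 0.20, 95% interval −0.04 to 0.92, limma adjusted p = 1). Markers of astrocytes and choroid plexus lay in the same direction. Other lists had median brain differences of −0.025 (neuron), 0.057 (oligodendrocyte), 0.034 (endothelium), −0.157 (red cell) and −0.305 (neutrophil). Of 5 astrocyte markers 4 averaged higher in Rap1 KI/KI brains, with a median difference of 0.48 and a summed level of 5.19 to 5.63 in WT and 5.46 to 6.52 in Rap1 KI/KI brains, and Aqp4 (1.00, SE 0.26) and Gja1 (0.48, SE 0.17) did not overlap. All 5 choroid plexus markers averaged higher, with a median of 0.55 and a summed level of 2.14 to 3.15 against 3.04 to 3.56. None of these markers was called after adjustment, and their part in the Mt2 value was not tested. The heart member was Fkbp5, with 1.74 ± 0.22 against 1.35 ± 0.01, a difference of 0.39 or 1.31-fold (SE 0.21, 95% interval −0.10 to 0.88, limma adjusted p = 0.66). The hearts with most Fkbp5, those of KI3 and KI2, were not both the hearts with most fat cell transcripts, which were those of KI1 and KI3, and the part of those transcripts in the Fkbp5 value was not tested. Fkbp5 averaged higher in Rap1 KI/KI mice in all 4 tissues, by 0.24 in liver, 0.33 in brain, 0.39 in heart and 0.23 in muscle, and each interval included 0. Among the members' first probes the narrowest interval belonged to Klf9 in liver, from −0.39 to 0.55, and in heart, from −0.53 to 0.43, to Mt1 in brain, from −0.24 to 0.58, and to Fkbp5 in muscle, from −0.24 to 0.71. Whether the genotype difference varied between tissues was tested by the interaction in limma, which called 0 of 8 members at an adjusted p under 0.05 (0% of 42322 probes) and 0 of 8 at an unadjusted p under 0.05 (2.92% of probes), with unadjusted p from 0.62 to 0.94 for the members' first probes.

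**Figure D4:**
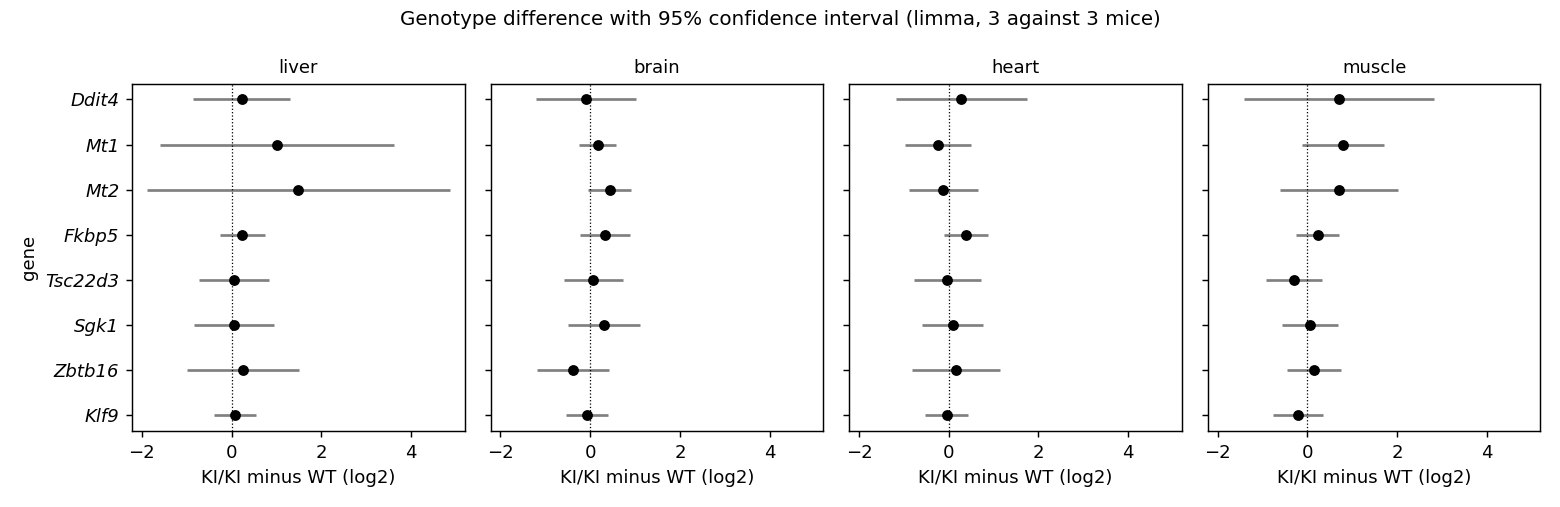
Genotype difference (horizontal axis, log2, Rap1 KI/KI mean minus WT mean) for each member in each tissue, points with 95% intervals from limma. Every interval includes 0, the widest belong to Mt2 and Mt1 in liver, and the Klf9 intervals are narrow.

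The pathway around the members was counted in the same way. Of 24 further glucocorticoid-responsive genes, 23 were tested in each tissue and 0 were called by limma in any. The genes above and below WT in the Rap1 KI/KI mice numbered 15 and 8 in liver, 13 and 10 in brain, 14 and 9 in heart and 18 and 5 in muscle, with median differences of 0.23, 0.13, 0.07 and 0.21. At an unadjusted p under 0.05, 1 of 23 genes passed in each tissue, where the share of all probes was 2.13% in liver, 2.62% in brain, 7.51% in heart and 2.47% in muscle, so nothing is read from these counts. The genes were Lcn2 in liver, an iron-scavenging lipocalin (2.37, SE 0.92, limma unadjusted p = 0.036), Igfbp1 in brain, where its level was near the floor, Pck1 in heart, a gluconeogenic enzyme that fat cells also express (4.34, SE 1.55, limma unadjusted p = 0.027), and Angptl4 in muscle, a lipoprotein lipase inhibitor (1.90, SE 0.68, limma unadjusted p = 0.026). The list's median deviation from the tissue mean was below 0 in 4 of 4 tissues in WT1, WT2 and KI1, above 0 in 4 of 4 in KI2 and KI3, and above 0 in 3 of 4 in WT3. These medians were small, from −0.38 to 0.29, and under quantile normalization the count above 0 was 1 for KI1, 3 for KI2, 4 for KI3 and 2 for WT3.

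Within that list, Cebpd and Arrdc2 had WT3, KI2 and KI3 highest in 3 of 4 tissues, Nfkbia in 2 and 5 genes in 1. The other 16 genes, among them the classical targets Per1, Dusp1, Pdk4 and Tat, had them in none. Cebpd in liver was 2.86, 2.92 and 3.45 in the WT mice and 3.06, 3.99 and 3.54 in the Rap1 KI/KI mice. In brain Cebpd was 1.79, 1.73 and 2.17 in the WT mice and 1.55, 2.64 and 4.41 in the Rap1 KI/KI mice. Cebpd in muscle left the pattern, with KI3 at 3.97 below KI1 at 4.72. Igfbp1 in liver, a gene induced by glucocorticoids and by fasting, was 4.83, 4.64 and 6.23 in the WT mice and 5.06, 7.02 and 6.97 in the Rap1 KI/KI mice, so the same 3 mice led. These genes were named after their values had been seen.

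The glucocorticoid receptor and its chaperones were counted next. Of 8 such genes 0 were called by limma in any tissue, and in heart 2 averaged above WT and 6 below it, with a median difference of −0.30. Nr3c1 itself differed by −0.06 in liver, −0.03 in brain, 0.26 in heart and −0.04 in muscle. Fkbp4 measured lower in Rap1 KI/KI heart (−0.81, SE 0.33, limma unadjusted p = 0.046, adjusted p = 0.65). For this list KI3 lay below the tissue mean in 4 of 4 tissues, by 0.24 to 0.41, and WT1 above it in 4 of 4, by 0.15 to 0.32. The median over all tested probes had the same signs, below the tissue mean in KI3 in 4 of 4 tissues (−0.10 to −0.04) and above it in WT1 in 4 of 4 (0.015 to 0.135). A metal list held 10 genes: Mt3, Mt4, Mtf1, Slc30a1, Slc30a10, Slc39a4, Slc39a10, Slc39a14 and the stress genes Gclc and Hmox1. All 10 were tested in liver and brain and 9 in heart and muscle, and 0 were called. The median difference was −0.06 in liver, 0.10 in brain, −0.32 in heart and −0.08 in muscle. KI3, the mouse with the highest Mt1 and Mt2 in liver, had metal list medians of −0.32 in liver, −0.05 in brain, −0.38 in heart and −0.15 in muscle, against −0.04, −0.10, −0.06 and −0.09 over all tested probes. The part of the metal genes in the Mt1 and Mt2 values was not tested. Of 13 mTORC1 and stress genes linked to Ddit4, 0 were called. Its paralog Ddit4l measured lower in Rap1 KI/KI muscle (−0.59, SE 0.24, limma unadjusted p = 0.047) and measured 0.75 (SE 0.36) higher in heart.

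Clock genes and acute phase genes, which glucocorticoids also touch, were read for the same mice. Clock genes averaged lower in Rap1 KI/KI mice for 8 of 12 tested in liver, 10 of 13 in brain, 7 of 12 in heart and 11 of 12 in muscle. The median differences were −0.17, −0.24, −0.04 and −0.25, against −0.01, −0.05, −0.02 and −0.07 over all tested probes. In each tissue 0 clock genes were called by limma. The clock list lay below the tissue mean in 4 of 4 tissues in KI1, with medians from −0.209 to −0.025, and in KI2, from −0.429 to −0.061. The acute phase list lay above the tissue mean in 4 of 4 tissues in KI3, by 0.36 to 1.78, and below it in 4 of 4 in WT2 and in WT3. The part of clock and acute phase genes in the members' values was not tested. Immediate early genes were below the tissue mean in 4 of 4 tissues in KI3, with medians of −0.477 in liver, −1.175 in brain, −0.163 in heart and −0.453 in muscle. The median of all tested probes was also below it in KI3, by less, at −0.04, −0.10, −0.056 and −0.093. The part of immediate early genes in the members' values was not tested.

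**Figure D5:**
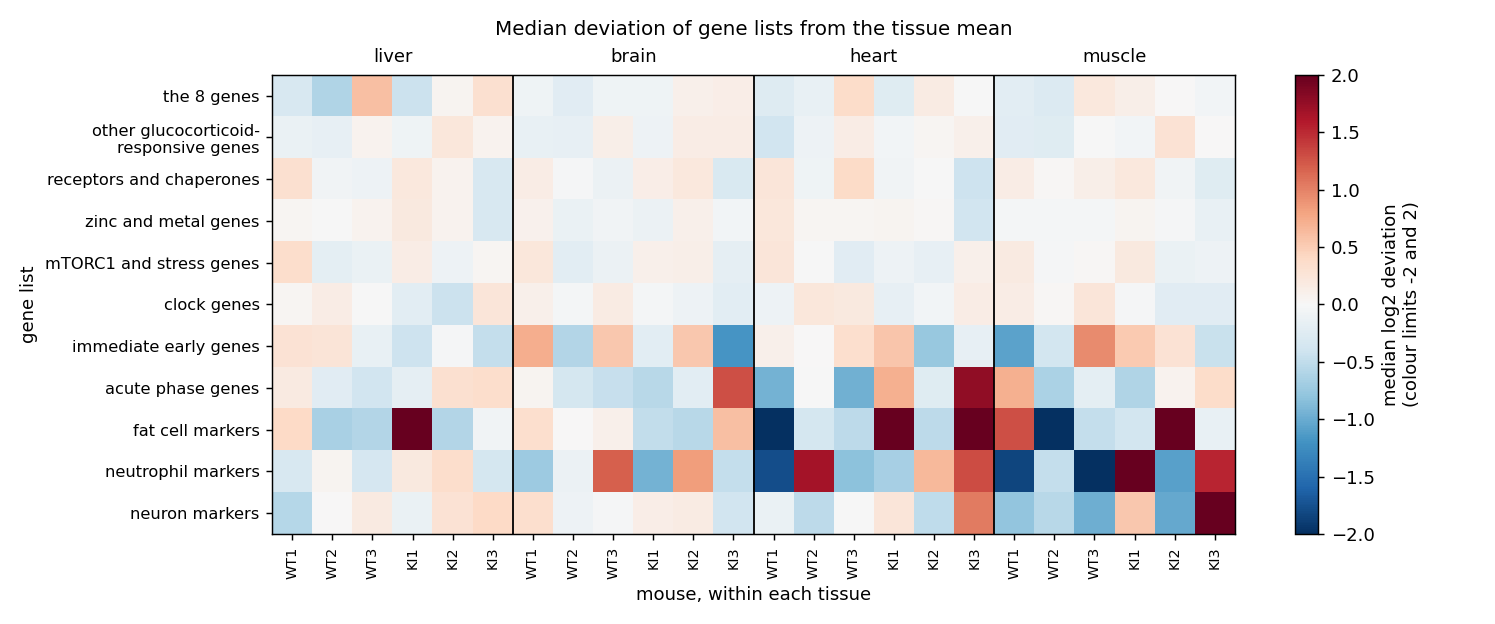
Median deviation from the tissue mean (colour, log2) of the members and of related gene lists (lines) in the 24 arrays (columns, by tissue and mouse), with colours held at −2 and 2. The line of further glucocorticoid targets is weakly positive in KI2 and KI3 and negative in WT1, WT2 and KI1, and the fat cell line is high in the hearts of KI1 and KI3.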

How the data were processed

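Total RNA of 4 tissues from 6 mice was labelled with Cy3 and hybridised to 1-colour Agilent mouse arrays, 1 array per sample. The authors deposited scanner output from Agilent Feature Extraction 12.0.3.1, in which each spot has a processed intensity, background-subtracted and detrended within the array. They also deposited a table of 1 score per probe and array, which matched the z-score of log10 processed intensity within each array to within 0.005. The methods name no statistical test for the arrays. Log2 processed intensities of 59305 non-control spots, without spots flagged as outliers, were averaged over the spots of a probe (55681 probes). The 75th percentile of each array was then subtracted. Probes were named through their accession and RefSeq, which gave 21368 gene names to 28331 probes. A gene with several probes is represented by the probe with the highest mean level, and other probes are given where they differ. Percentile scaling sets the level of each array and leaves the shape of its distribution as scanned.

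Within each tissue, 3 Rap1 KI/KI arrays were compared with 3 WT arrays by limma 3.58.1 (lmFit, eBayes, two-sided) in R 4.3.3, over all probes that passed the scanner's background flag on 3 or more of the 6 arrays, with Benjamini-Hochberg adjustment and a threshold of 0.05. The mice are separate animals, and the mouse number joins tissues, not genotypes. Same-mouse arrays of different tissues deviated together with correlations from −0.302 to 0.365 over 36 pairs (median 0.074, 28626 probes), and the consensus within-mouse correlation was 0.026, so the interaction test had no mouse block and the block was an alternative. The consensus is taken over all probes. It does not describe Ddit4 and the second Mt1 probe, for which the same mice led in every tissue. Alternatives were quantile normalization, normexp with an offset of 50, the authors' scores, other filters on dim probes, the mean over probes, age or slide in the model, trend and robust eBayes, all 24 arrays in a shared fit, the mouse block and leaving out each mouse. Normexp used the median spot intensity in place of the planned mean intensity, which was not used here. The fits were tested on simulated data.

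The members and all gene lists were chosen with earlier results of these data known. Named genes are the members, the 5 genes most like Ddit4 and Mt1, and at most 5 of each related list by lowest p or highest level, with exceptions stated. Marker lists of other cell types were also read, and some of those that moved with a result are given beside it.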

Additional observations from a re-analysis of the deposited data

How the results depend on the processing

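No member was called between genotypes in any of 16 settings in liver, 17 in brain, 18 in heart and 16 in muscle, nor by the interaction in 14, the lowest adjusted p being 0.81, 0.69, 0.53, 0.51 and 0.96. With the mouse as a replicate block 0 members were called, as without it. The block gave every probe the same within-mouse correlation, 0.026 in the interaction test. It therefore does not check the pairing of the members' own values by mouse. The lowest unadjusted p was 0.0055, for Mt2 in muscle without KI1, and in brain 0.028, for Mt2. Some signs changed. Quantile normalization gave 0.11 for Mt2, 0.19 for Tsc22d3 and 0.16 for Klf9 in heart, the authors' scores gave −0.0033 for Tsc22d3 in liver and 0.0033 in heart, the mean over both Mt1 probes gave 0.46 in heart, and leaving out the hearts of KI1 and KI3, which was added after seeing the data, gave 0.29 for Tsc22d3 and 0.12 for Klf9. The cause was not tested.

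Leaving out each mouse in turn, the differences ran in liver from −0.09 to 0.68 for Ddit4, −0.22 to 2.03 for Mt1, −0.14 to 2.76 for Mt2, −0.17 to 0.37 for Tsc22d3, −0.38 to 0.37 for Sgk1, −0.27 to 0.78 for Zbtb16 and −0.03 to 0.16 for Klf9. In brain they ran from −0.45 to 0.41 for Ddit4, −0.11 to 0.33 for Tsc22d3, −0.01 to 0.60 for Sgk1 and −0.20 to 0.01 for Klf9. In heart they ran from −0.19 to 0.85 for Ddit4, −0.42 to 0.09 for Mt1, −0.32 to 0.23 for Mt2, −0.24 to 0.24 for Tsc22d3, −0.18 to 0.31 for Sgk1, −0.26 to 0.50 for Zbtb16 and −0.13 to 0.06 for Klf9, and in muscle from 0.01 to 1.66 for Ddit4, 0.51 to 1.18 for Mt1, −0.12 to 0.30 for Sgk1 and −0.06 to 0.31 for Zbtb16. The lead of heart over brain for Mt1, 0.01, became −1.02 with quantile normalization, −0.09 with normexp and −0.04 with the authors' scores, and ran from −0.19 to 0.07 when mice were left out. The lead of liver over muscle for Fkbp5 moved to 0.18 with quantile normalization. With 3 mice a group and 2 ages, differences below the intervals given cannot be seen.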
